A study of Mus musculus with 6 samples.

Results

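Expression of 10 stress genes was compared between hippocampal neurons that had received apolipoprotein E (apoE) particles from microglia and neurons that had received particles from astrocytes. With earlier results of these data known, the 10 genes were taken by name: the transcription factor gene Trp53 with Mdm2, Ccng1 and Trp53inp1, the Gadd45 family (Gadd45a, Gadd45b, Gadd45g) and the sestrin family (Sesn1, Sesn2, Sesn3). They are 10 of 26562 gene symbols with a value other than 0 in the files, and all 10 were among the 15055 genes tested. Both groups were primary neurons of wild-type mice, and on culture day 10 both received 6 µg/mL of particles for 24 h, so that the groups differ by the labels only in the cell type that made the particles (n = 3 samples per group). The labels give neither age nor sex of the animals, nor how many animals stand behind a sample, and neurons without particles were not analysed here. Each direction below is therefore microglial against astrocytic apoE.

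The p53 protein, encoded by Trp53, is a transcription factor that DNA damage and other stresses stabilise, and Mdm2 encodes the ubiquitin ligase that degrades it and is itself a p53 target. Gadd45 proteins are small stress sensors that bind cyclin-dependent kinase 1, activate the p38 and JNK kinase cascades and take part in active DNA demethylation, which in neurons has been described for Gadd45b after electrical activity. Sestrins restrain the growth kinase mTORC1 through the GATOR complexes and activate AMPK. Sesn1 and Sesn2 are known p53 targets, Sesn2 also responds to ATF4 and NRF2, and Sesn3 is a known target of FoxO factors.

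The values are the log2 values that the authors deposited, which behave like a regularized logarithm: differences of weakly expressed genes are drawn towards 0 and their spread is compressed. Read depth is unknown, and the libraries summed to 18060473 to 18337624 on the 2^value scale. The typical (median) SD between replicates was below counting error for low genes: it was 0.0336 for genes between 6 and 8, against 0.121 if each 2^value were a read count, and 0.0362 between 8 and 10, against 0.0617. It was near it between 10 and 12 (0.0326 against 0.0346) and above it from 12 upwards (0.0312 against 0.0181), where Ccng1 and Sesn2 lie. Standard errors (SE) from limma were therefore also computed with that counting error added. The result is given where it ends a call among the 10 genes or the named genes of related pathways. For markers outside these pathways it is not given. Neuronal transcripts were present in every library, with the log2 value of Map2 at 14.63 ± 0.02 (SD, n = 3) with astrocytic and 14.53 ± 0.05 with microglial apoE, called lower (limma adjusted p = 0.0055; 0.051 without astrocytic replicate 2), and that of Tubb3 at 12.92 ± 0.04 and 12.94 ± 0.02, not called. The 6 neuron markers summed to 49659 to 50136 on the 2^value scale with astrocytic and to 47536 to 48425 with microglial apoE, with 2 called lower and 0 higher. Transcripts of other cells were present too, with the astrocyte transporter gene Slc1a3 at 14.59 ± 0.01 and 14.69 ± 0.01 and the lipid carrier gene Fabp7 of immature astrocytes at 13.95 ± 0.02 and 13.55 ± 0.04. The 10 astrocyte markers summed to 73445 to 74618 with astrocytic and to 62128 to 62692 with microglial apoE, and 8 of them were called lower and 1 higher. The 1 called higher was Slc1a3 (0.09), a strongly expressed gene that weighs much in these sums. On the log2 scale the deepest fall among the 10 markers was -1.08, and their median stood at -0.29. All 6 markers of dividing cells were called lower (sums of 1890 to 1951 and 1180 to 1193), among them Top2a (-0.83) and Mki67 (-0.82). The 11 microglial markers were low and summed to 279 to 282 and 284 to 288, with no marker listed at 0. The highest, C1qa, stood at 5.89 with astrocytic and 5.93 with microglial apoE. P2ry12, Tmem119 and Trem2 were too low to be tested, and of the 8 tested 1 was called higher and 0 lower. The part of these shifts in the differences below was not tested. In bulk RNA fewer cells of a type and less RNA per cell cannot be told apart.

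Of the 10 genes, 6 rose with microglial apoE (Trp53, Mdm2, Ccng1, Trp53inp1, Gadd45a and Sesn2) and 2 fell (Sesn1 and Sesn3), while Gadd45b and Gadd45g did not pass the test (limma, p adjusted by Benjamini-Hochberg across the 15055 genes, threshold 0.05). Over all genes 24.9% were called, 13.0% higher and 11.8% lower. That split moved with scaling, from 1962 higher and 1780 lower as deposited to 1478 and 2765 with median centring and to 2516 and 1318 with equal sums. The 6 rises were called under each of the 3 scalings tried, and Gadd45g was also called lower under 2 of them (median centring, adjusted p = 0.023, and equal sums without mitochondrial genes, adjusted p = 0.038). With the counting error added, 6.50% of all genes and 6 of the 10 were called, all 6 of them higher. The median log2 fold change was 0.19 over the 10 genes and -0.00057 over all genes tested.

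**Figure D1:**
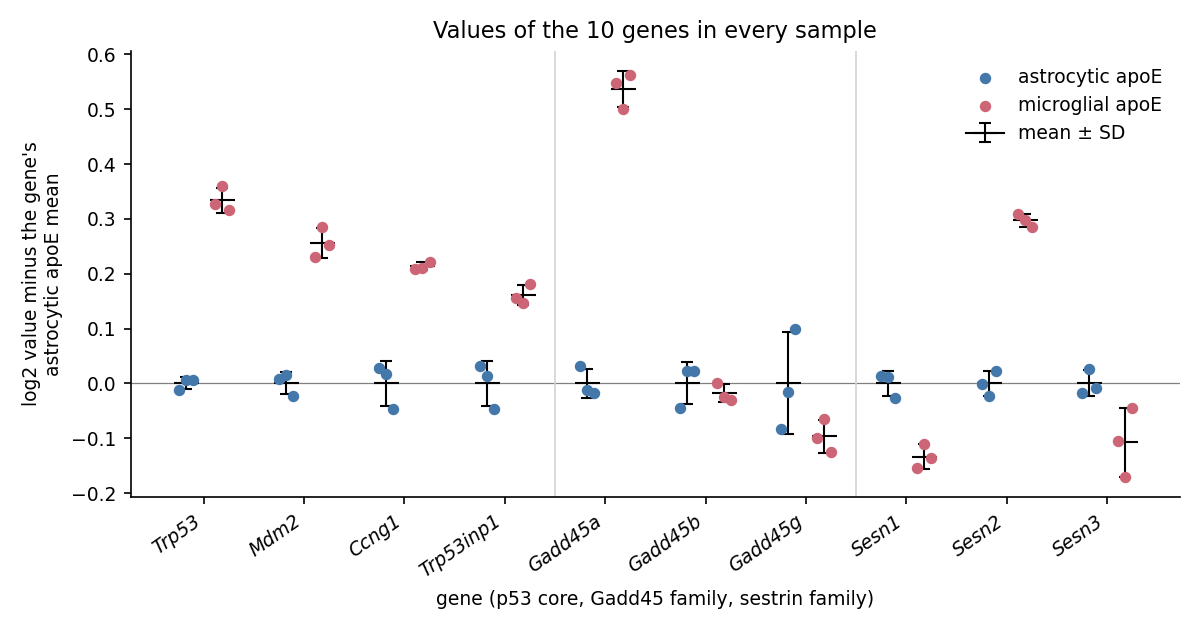
Each point is a sample's log2 value minus the mean of the 3 astrocytic apoE samples for that gene, with the group mean and SD (n = 3 per group). The microglial samples of Gadd45a lie highest, 6 genes lie wholly above their astrocytic samples, Sesn1 and Sesn3 lie wholly below, and the groups overlap for Gadd45b and Gadd45g.

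Trp53 had log2 values of 10.38, 10.40 and 10.40 with astrocytic and of 10.72, 10.76 and 10.71 with microglial apoE. The groups were separated by 0.31, and the range within a group was at most 0.044. The rise was 1.26-fold (log2 fold change 0.33 ± 0.028 SE, limma adjusted p = 7.6e-10). Trp53 lies on GRCm38 chromosome 11 from 69580359 to 69591873, 103 bases from Wrap53 on the other strand, with no exon shared. Wrap53 did not pass the test (0.04 ± 0.029 SE, limma adjusted p = 0.37), and the pseudogene Trp53-ps was listed at 0 in all libraries.

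Mdm2, the ligase gene in feedback with p53 (chromosome 10, 117688875 to 117710758), had values of 9.92, 9.92 and 9.89 with astrocytic and 10.14, 10.19 and 10.16 with microglial apoE. All microglial samples were above all astrocytic samples, by at least 0.215. The rise was 1.19-fold (0.26 ± 0.029 SE, limma adjusted p = 1.9e-07).

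Ccng1 encodes cyclin G1, a p53-induced protein that recruits phosphatase 2A to Mdm2 (chromosome 11, 40748552 to 40755311). Its values were 12.94, 12.93 and 12.86 with astrocytic and 13.12, 13.12 and 13.13 with microglial apoE. The microglial samples were the tightest of any of the 10 genes, with an SD of 0.007, and lay 0.18 or more above the astrocytic samples. The rise was 1.16-fold (0.21 ± 0.027 SE, limma adjusted p = 1.0e-06).

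Trp53inp1 encodes a p53-induced nuclear protein that takes part in stress-induced cell death and autophagy (chromosome 4, 11156431 to 11174379). It stood at 10.60, 10.58 and 10.52 with astrocytic and at 10.72, 10.71 and 10.75 with microglial apoE, without overlap. It had the smallest rise of the 4 genes of the p53 core, 1.12-fold (0.16 ± 0.029 SE, limma adjusted p = 1.4e-04, and 0.015 with the counting error added).

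As planned, the promoters of the 10 genes were searched for the p53 decamer, the unit that is repeated in a p53 response element. RefSeq windows on GRCm38.p6, from 250 bases before to 50 bases after a transcription start, were at hand for 9 of the 10 genes, all but Trp53inp1, in 10 windows because Sesn1 has 2. The decamer, searched on both strands, was present in 5 of these windows and in 8.36% of all 32851 windows of that length. Known p53 targets are among the genes searched, so their choice may raise this count, and it was not tested. The 5 matches are printed here 5′ to 3′ on the strand of the gene, with the decamer in capitals, to let the letters be compared between genes that rose and the gene that fell.
Trp53: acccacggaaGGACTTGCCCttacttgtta
Mdm2: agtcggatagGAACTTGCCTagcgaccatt
Ccng1: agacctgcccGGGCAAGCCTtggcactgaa
Gadd45a: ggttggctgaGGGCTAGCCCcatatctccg
Sesn1: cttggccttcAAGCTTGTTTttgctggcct

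These stretches lie at chr11:69580274-69580303 (Trp53, plus strand), chr10:117710925-117710954 (Mdm2, minus), chr11:40755452-40755481 (Ccng1, minus), chr6:67037428-67037457 (Gadd45a, minus) and chr10:41887256-41887285 (Sesn1, plus). The decamers begin 75, 186, 185, 40 and 173 bases upstream of the RefSeq start in that order. By GENCODE M21 the Gadd45a stretch lies in an exon of Gadd45a and inside the antisense gene E230016M11Rik, the Sesn1 stretch lies in an intron of Sesn1 ahead of its inner start, and the other 3 lie outside genes. Trp53, Mdm2, Ccng1 and Gadd45a rose and Sesn1 fell. The lower direction rests on Sesn1 alone, whose limma call was lost with the counting error added (adjusted p = 0.22). Sequence outside the windows was not searched, so decamers elsewhere in or near these genes would not be seen. The ATF4 composite element TGATGNAA was found in the window of Gadd45g alone (3.97% of all windows), and the antioxidant response core TGACNNNGC in those of Trp53, Gadd45g and Sesn2 (12.4% of all windows). The cyclic AMP response element TGACGTCA was in none of them (1.79% of all windows). All were searched on both strands, none of these matches shared bases with another, and a match is a description of letters and no evidence that a factor bound there.

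Gadd45a had the highest log2 fold change of the 10 genes. Its values were 8.20, 8.15 and 8.15 with astrocytic and 8.71, 8.66 and 8.73 with microglial apoE, a separation of 0.469. The rise was 1.45-fold (0.54 ± 0.031 SE, limma adjusted p = 6.6e-13), and 99.4% of the genes tested had a smaller absolute log2 fold change. At its level the SE with counting error is 0.071, with an adjusted p of 7.9e-06. Gadd45a (chromosome 6, 67035096 to 67037457) shares 337 of its 1764 exonic bases with E230016M11Rik on the other strand, and the strand setting of the counting is not known. E230016M11Rik was low and did not pass, at 5.16 ± 0.02 (SD, n = 3) with astrocytic and 5.17 ± 0.02 with microglial apoE (limma adjusted p = 0.97).

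Gadd45b (chromosome 10, 80930073 to 80932204), the paralog linked to neuronal activity, had values of 7.46, 7.53 and 7.53 with astrocytic and 7.50, 7.48 and 7.47 with microglial apoE. The groups overlapped, and the log2 fold change was -0.02 ± 0.029 SE (95% confidence interval -0.08 to 0.04, limma adjusted p = 0.71). With the counting error added the interval widened to -0.21 to 0.17, and the shrinkage of a weakly expressed gene adds to this, so that a change of that size was not detectable here.

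Gadd45g (chromosome 13, 51846678 to 51848468), a paralog with roles in neural differentiation, had the widest astrocytic spread of the 10 genes, with values of 8.42, 8.49 and 8.60. The microglial values of 8.40, 8.44 and 8.38 lay at and below the lower end of these, and the groups overlapped. The log2 fold change was -0.10 ± 0.038 SE (limma adjusted p = 0.068). Without astrocytic replicate 1 it was -0.14 and was called (limma adjusted p = 0.012), and without astrocytic replicate 3 it was -0.05 (limma adjusted p = 0.32).

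Within-library differences between paralogs do not depend on how a library is scaled. The log2 value of Gadd45a minus that of Gadd45g was -0.22, -0.34 and -0.46 with astrocytic and 0.31, 0.23 and 0.35 with microglial apoE. Without a correction for length these values say nothing of which gene is the more abundant, but Gadd45a gained on Gadd45g in all 3 microglial libraries. This difference moved by 0.63, and the one between Gadd45a and Gadd45b moved by 0.55, from 0.74, 0.63 and 0.62 to 1.21, 1.19 and 1.25. The difference of Gadd45b and Gadd45g moved by 0.08, from -0.96, -0.96 and -1.08 to -0.90, -0.96 and -0.91. Groups did not overlap for any of these 3 pairs, but for Gadd45b and Gadd45g they met at -0.96 when rounded. Each exact two-sided permutation p was 0.1, the smallest that 3 against 3 samples allow, or 0.12 adjusted over the 6 paralog pairs compared.

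Sesn2 (chromosome 4, 132492032 to 132510501), the sestrin that amino acid and oxidative stress induce, stood at 12.40, 12.38 and 12.42 with astrocytic and at 12.71, 12.70 and 12.69 with microglial apoE. The microglial samples spanned 0.024 and lay 0.262 or more above the astrocytic ones. The rise was 1.23-fold (0.30 ± 0.026 SE, limma adjusted p = 2.1e-09). At this level the counting error is small, and the SE with it is 0.030.

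Sesn1 (chromosome 10, 41809935 to 41908424), the sestrin best known as a p53 target, went the other way. Its values were 9.35, 9.35 and 9.31 with astrocytic and 9.18, 9.23 and 9.20 with microglial apoE, with the groups 0.084 apart. It fell by 0.13 on the log2 scale (SE 0.030, limma adjusted p = 0.0015). The call was lost with the counting error added (adjusted p = 0.22).

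Sesn3 (chromosome 9, 14275067 to 14333101), the FoxO-responsive sestrin, had values of 11.19, 11.23 and 11.20 with astrocytic and 11.10, 11.03 and 11.16 with microglial apoE. The groups were 0.027 apart, the closest of the 8 genes without overlap, and the microglial samples ranged over 0.126. It fell by 0.11 on the log2 scale (SE 0.031, limma adjusted p = 0.011). The call was lost with the counting error added (adjusted p = 0.13), without astrocytic replicate 2 (-0.09, adjusted p = 0.086) and without microglial replicate 2 (-0.08, adjusted p = 0.066).

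**Figure D2:**
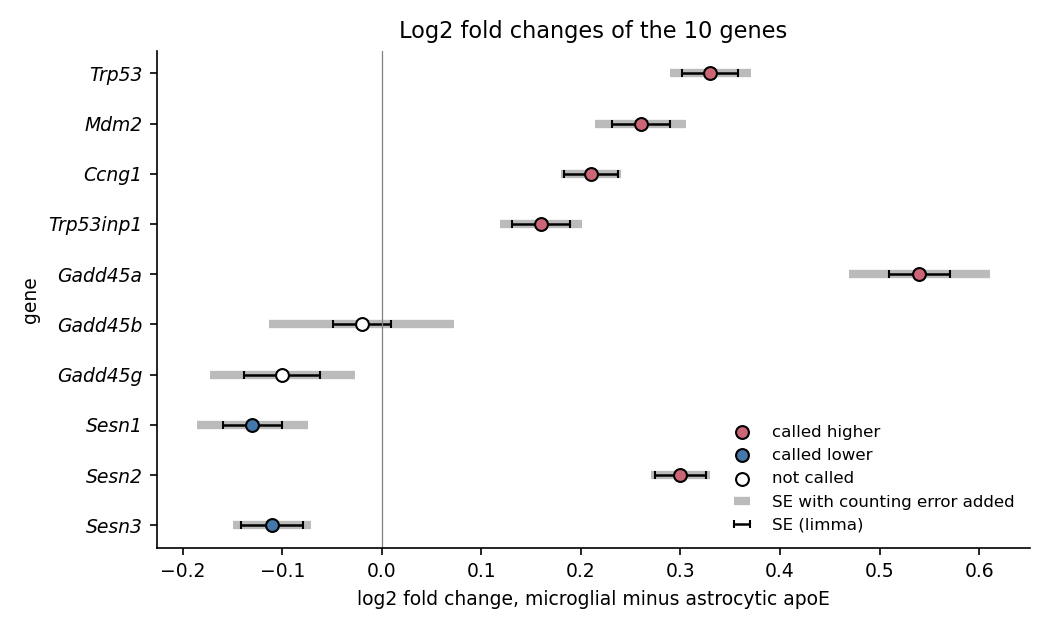
Points are log2 fold changes of microglial minus astrocytic apoE for each gene, coloured by call. Black bars are the limma SE and grey bars the SE with counting error added, which is widest for Gadd45b (0.093), the gene with the lowest value, and narrowest for Ccng1 and Sesn2 (0.030 each).

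Of the 10 genes, 8 had groups that did not overlap, against 38.9% of all genes tested. The deposited value of Sesn1 minus that of Sesn2 was -3.05, -3.03 and -3.11 with astrocytic and -3.53, -3.47 and -3.48 with microglial apoE, a move of -0.43. Sesn2 minus Sesn3 moved by 0.40, from 1.21, 1.15 and 1.23 to 1.61, 1.66 and 1.53. For both pairs the groups did not overlap (exact two-sided permutation p = 0.1, adjusted p = 0.12). No change was detected between Sesn1 and Sesn3: their difference was -1.83, -1.88 and -1.88 with astrocytic and -1.92, -1.81 and -1.96 with microglial apoE, the groups overlapped, and the exact permutation p was 0.6. The mean difference moved by -0.03, and by -0.07 to 0.01 with a library left out.

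Levels of different genes can be set beside each other only per length of exon, here as 2^value per kilobase of the merged GENCODE exons. With astrocytic apoE the order on this per-kilobase scale was led by Ccng1 (2190 ± 61.1, SD, n = 3) and Sesn2 (1560 ± 24.9). Far below came Trp53 (333 ± 2.49), Gadd45g (310 ± 20.1), Trp53inp1 (234 ± 6.55), Mdm2 (189 ± 2.64), Gadd45a (163 ± 3.05), Sesn1 (162 ± 2.54), Sesn3 (155 ± 2.57) and Gadd45b (114 ± 3.02). In this order Trp53 and Gadd45g had overlapping samples, and so did Gadd45a and Sesn1. With microglial apoE, Gadd45a (236 ± 5.36) stood above Mdm2 (226 ± 4.31), with samples of 230 to 240 and 222 to 230 that overlapped, and Sesn1 (148 ± 2.32) and Sesn3 (144 ± 6.25) overlapped. Sesn3 has 15.27 kb of merged exons, against 3.98 kb for Sesn1 and 3.48 kb for Sesn2, so its level per kilobase is too low if the neurons use a shorter transcript.

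On the same per-kilobase scale Sesn2 made up most of the sestrin signal in every library. Its share was 83.1% ± 0.40 (SD, n = 3) after astrocytic and 86.8% ± 0.29 after microglial apoE. These shares rest on the merged exon lengths, and that of Sesn2 is too high if the neurons use a shorter Sesn3 transcript. The summed sestrin signal per kilobase was 1870, 1850 and 1890 with astrocytic and 2220, 2200 and 2190 with microglial apoE, higher in all 3 microglial libraries although Sesn1 and Sesn3 were lower. Gadd45a made up 29.2%, 27.7% and 26.4% of the Gadd45 signal with astrocytic and 37.1%, 36.0% and 37.8% with microglial apoE. Gadd45g held the largest part in both groups, 52.8% ± 1.6 and 45.4% ± 0.90, and Gadd45b the smallest, 19.5% ± 0.41 and 17.7% ± 0.14.

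**Figure D3:**
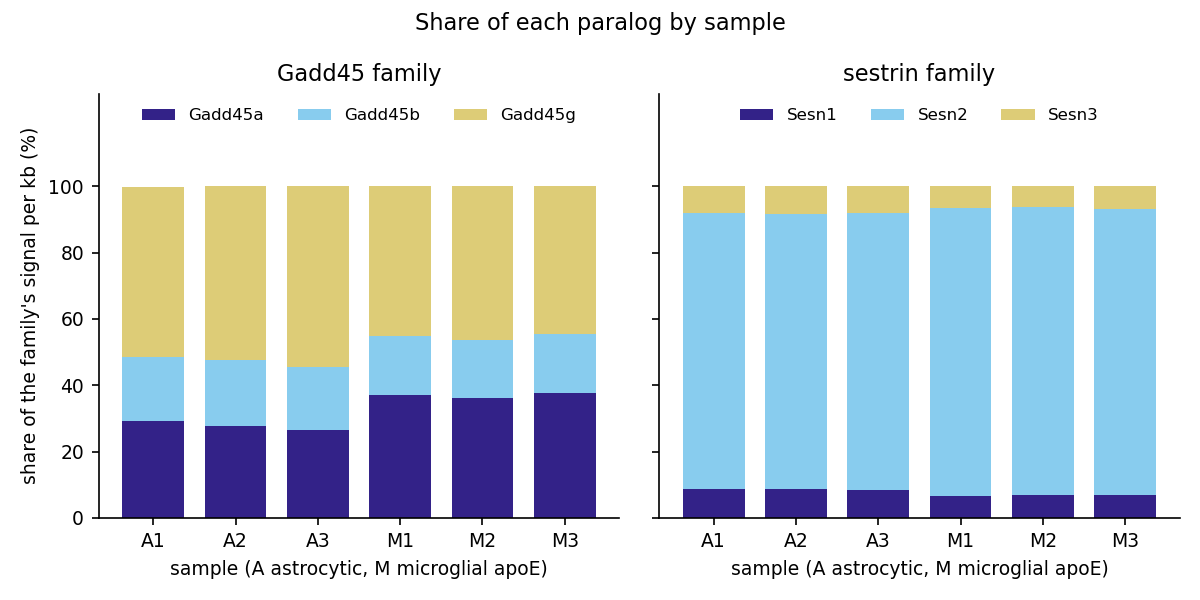
Bars give the share of each paralog in its family's summed 2^value per kilobase of exon, for the 3 astrocytic (A) and 3 microglial (M) apoE samples. Gadd45a takes 26.4% to 29.2% in the A samples and 36.0% to 37.8% in the M samples. With merged exon lengths Sesn2 takes over 80% of the sestrin signal in all 6, less if a shorter Sesn3 transcript is used.

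Other genes of the p53, Gadd45 and sestrin pathways were described from lists written from general knowledge, with earlier results of these data known. The shares called in these lists are therefore not independent of these data. Of 32 further p53 targets, all tested, 17 rose with microglial apoE, 2 fell and 13 did not pass, and the median log2 fold change was 0.083. The calls came to 59.4% of the list, against 24.9% of all genes. Without microglial replicate 1 they came to 40.6% of the list, with 11 higher and 2 lower. Calls over all genes also fell without that library, from 3742 to 2867 of the 15055 tested. Gdf15, a stress-induced cytokine, had the smallest p (7.90 ± 0.04 to 8.66 ± 0.03, SD, n = 3, log2 fold change 0.76 ± 0.031 SE, limma adjusted p = 4.0e-16). Cdkn1a, which encodes the cell cycle inhibitor p21, rose 1.30-fold, from 11.14, 11.16 and 11.09 to 11.50, 11.52 and 11.51 (limma adjusted p = 6.9e-11). It shares 273 of its 3553 exonic bases with AC167363.2 on the other strand, and the strand setting of the counting is not known. The gene of the Akt inhibitor Phlda3 (0.36 ± 0.037 SE) and the death receptor gene Tnfrsf10b (0.31 ± 0.030 SE) rose as well. Those that fell were Rrm2b, a ribonucleotide reductase subunit (-0.10 ± 0.029 SE), and the death receptor gene Fas (-0.09 ± 0.032 SE). Both were lost with the counting error added (adjusted p = 0.54 and 0.88), which left 9 of the 32 called, all higher (28.1%, against 6.50% of all genes). Fas was also lost with equal sums (adjusted p = 0.082) and with replicate number as a block (adjusted p = 0.054). It was lost without astrocytic replicate 2 or microglial replicate 2 as well (adjusted p = 0.18 for each).

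Among genes that act on p53, 3 of 19 tested were called higher and 3 lower, 31.6% of them against 24.9% of all genes. Without microglial replicate 2 the split was 5 higher and 1 lower, and without microglial replicate 1 it was 1 higher and 3 lower. Trp63 of the 20 listed was too low to be tested. Daxx, a histone chaperone that also binds Mdm2, rose by 0.23 ± 0.031 SE (limma adjusted p = 3.8e-06). The ubiquitin ligase gene Rchy1 (0.10 ± 0.030 SE) and the acetyltransferase gene Crebbp (0.12 ± 0.038 SE) were called with smaller differences, Crebbp with overlapping groups. The checkpoint kinase genes Chek2 (-0.13 ± 0.022 SE), Chek1 (-0.12 ± 0.033 SE) and Atr (-0.11 ± 0.032 SE) were called lower, in libraries in which the 6 markers of dividing cells were lower too. With the counting error added Daxx was called (adjusted p = 0.021) and the other 5 were not. Without astrocytic replicate 1 the calls numbered 3 (15.8%, against 17.5% of all genes), with Chek1 (adjusted p = 0.061), Rchy1 (0.13) and Crebbp (0.098) lost. Chek1 was also lost without astrocytic replicate 2 or microglial replicate 2, Atr without microglial replicate 2 and Rchy1 without microglial replicate 1 (adjusted p of 0.11, 0.070, 0.065 and 0.051 in that order). Crebbp was called without astrocytic replicate 3 or microglial replicate 2 and lost without each of the other 4 libraries (adjusted p = 0.082 to 0.11), and also without the trend and robust options (0.053).

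Of 18 genes that Gadd45 proteins act with, 2 were called higher and 4 lower, 33.3% of them against 24.9% of all genes. The mitotic pair Ccnb1 (7.86 ± 0.06 to 7.28 ± 0.04, SD, n = 3, log2 fold change -0.59 ± 0.032 SE) and Cdk1 (7.78 ± 0.04 to 7.25 ± 0.03, -0.53 ± 0.031 SE) fell most, and both are also among the 6 markers of dividing cells. The replication clamp gene Pcna (-0.10 ± 0.027 SE) and the JNK gene Mapk8 (-0.10 ± 0.029 SE) were called lower, and the p38 gene Mapk14 (0.09 ± 0.029 SE, adjusted p = 0.032) and the repair endonuclease gene Ercc5 (0.11 ± 0.031 SE, adjusted p = 0.013) higher in limma. Only Ccnb1 and Cdk1 were called with the counting error added. Without astrocytic replicate 2 the calls numbered 3 (16.7%, against 17.0% of all genes), with Mapk8, Mapk14 and Ercc5 lost (adjusted p = 0.071, 0.093 and 0.084). Leaving out astrocytic replicate 1 likewise ended the call of Mapk8 (0.061), and leaving out microglial replicate 1 that of Ercc5 (0.091). Mapk14 was also lost without astrocytic replicate 3, microglial replicate 1 or microglial replicate 2 (0.062 to 0.13), with median centring (0.088), with equal sums without mitochondrial genes (0.057) and when low genes were not filtered (0.058).

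In the list of 29 sestrin partners and inducers 10 rose, 2 fell and 17 did not pass, so that 41.4% were called, against 24.9% of all genes. With the counting error added 8 were called, 7 higher and 1 lower (27.6%, against 6.50% of all genes). The median log2 fold change was 0.021, and ranged from 0.0026 with median centring to 0.035 with equal sums or without microglial replicate 3. The 4 with the smallest p were the autophagy receptor gene Sqstm1 (13.55 ± 0.04 to 13.97 ± 0.03, SD, n = 3, log2 fold change 0.42 ± 0.027 SE) and 3 transcription factor genes. These were Nfe2l2, which encodes NRF2 (10.64, 10.65 and 10.62 to 11.01, 11.01 and 10.97, 0.36 ± 0.027 SE), Atf4 (12.97 ± 0.02 to 13.21 ± 0.03, 0.24 ± 0.026 SE) and Ddit3 (0.19 ± 0.030 SE), with limma adjusted p from 4.0e-12 to 2.4e-05. The 2 that fell were the arginine sensor paralog Castor2, listed as Gatsl2 (-0.15 ± 0.032 SE, limma adjusted p = 6.8e-04), and Depdc5 of GATOR1 (-0.10 ± 0.030 SE, limma adjusted p = 0.019, and 0.54 with the counting error added). Depdc5 was also lost without astrocytic replicate 1 or 2 or microglial replicate 1 (adjusted p = 0.076 to 0.099).

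**Figure D4:**
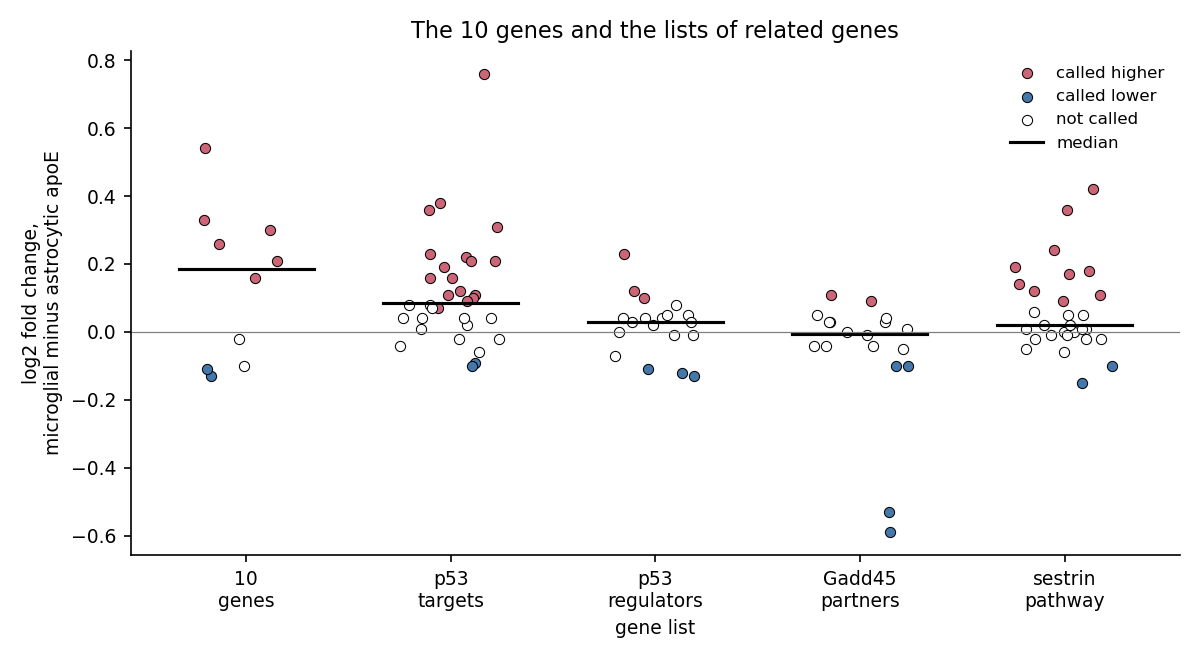
Each point is a gene's log2 fold change of microglial minus astrocytic apoE, for the 10 genes and for the 4 lists of related genes, coloured by call, with the list median as a line. The median is 0.19 for the 10 genes and 0.083 for the p53 targets, and the 2 lowest points, in the Gadd45 partner list, are Ccnb1 (-0.59) and Cdk1 (-0.53).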

How the data were processed

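Total RNA of 6 samples was sequenced on a DNBSEQ platform. The deposited tables hold 1 log2 value per gene symbol (47593 symbols, 21031 of them at 0 in all libraries). Tools listed in the submitters' processing notes are HISAT2, featureCounts, DESeq2 and FastQC, with the build GRCm38 and no versions. The transformation is not stated and was inferred from the values. Samples were grouped by their recorded treatment. The labels do not say whether samples came from separate cultures, so p-values measure the spread between these samples, which may be technical.

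Genes reaching log2 of 10 in at least 3 libraries were tested with limma 3.58.1 (trend and robust options, R 4.3.3), with Benjamini-Hochberg adjustment over 15055 genes. Paralog differences were compared by exact permutation (scipy 1.17.1). Positions and exon lengths are from GENCODE M21, promoters from RefSeq (GRCm38.p6). Older symbols were matched for 3 list genes. The procedure was tested on simulated data. Named genes are the 10 members, Cdkn1a, up to 4 called genes per list with the smallest p and up to 4 called in the rarer direction, and the 2 most abundant of each marker list. In the lists not described above, Olig1 (0.01 ± 0.030 SE) and Olig2 (0.15 ± 0.029 SE) led the oligodendrocyte lineage. Of its 8 markers 1 was called higher and 2 lower, with log2 fold changes from -0.38 to 0.15 and a median of -0.015. Of 4 endothelial markers 1, Kdr (-0.03 ± 0.025 SE), was tested and not called, and Pecam1 was too low to be tested. Of 3 tested fibroblast markers 2 were called higher (Col1a1 0.21 ± 0.029 SE, Dcn not called at -0.06 ± 0.033 SE). C1qa (0.04 ± 0.024 SE) and C1qb (0.01 ± 0.022 SE) led the microglial list and were not called. The members and lists were chosen with earlier results of these data known. The counting-error alternative was added after seeing the data. It adds the variance that 2^value would have as a count to that of limma, without undoing the shrinkage of the fold change. Replicate numbers gave no sign of pairing, which so few samples cannot exclude. Protein sequences were not used here.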

Additional observations from a re-analysis of the deposited data

How the results depend on the processing

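Each of the 6 rises (Trp53, Mdm2, Ccng1, Trp53inp1, Gadd45a, Sesn2) and the fall of Sesn1 was called in limma under the 14 alternatives planned, with log2 fold changes of 0.32 to 0.35 for Trp53, 0.52 to 0.56 for Gadd45a, 0.28 to 0.31 for Sesn2 and -0.15 to -0.12 for Sesn1. Gadd45b was called under none. Gadd45g (-0.10) was called when low genes were not filtered (-0.10, adjusted p = 0.046), with median centring (-0.11), with equal sums without mitochondrial genes (-0.11) and without astrocytic replicate 1, and ranged from -0.14 to -0.05 with a library left out. Sesn3 ranged from -0.14 to -0.08 with a library left out. With the counting error added, Sesn1 (-0.13) and Sesn3 (-0.11) were not called. The calls fell from 3742 to 979 over all genes, from 19 to 9 of the p53 targets and from 6 to 1 of the p53 regulators. They also fell from 6 to 2 of the Gadd45 partners and from 12 to 8 of the sestrin partners and inducers. This follows from the larger SE. With a library left out, the calls numbered 3 to 6 among p53 regulators and 3 to 6 among Gadd45 partners. Over all genes the share called then ranged from 17.0% to 30.2%. The difference of Sesn1 and Sesn3 changed sign without microglial replicate 3 (0.01 against -0.03) and ranged down to -0.07 with other libraries left out. With the replicate block 3387 genes and 8 of the 10 were called, and of the named genes Fas was lost (adjusted p = 0.054). Same-numbered samples deviated with correlations of 0.039, -0.122 and -0.186, and differently numbered ones with -0.12 to 0.176. No sign of pairing by number was seen, but 3 samples per group cannot exclude it. Depth is unknown, so the counting error is itself an assumption.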
